A study of Rattus norvegicus and Mus musculus with 3 samples.

Results

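The ionotropic kainate receptor subunit genes Grik1, Grik2, Grik3, Grik4 and Grik5 were taken by symbol from the hippocampal expression tables. All 5 were listed in each table, out of 30438 genes in either rat table and 34714 in the mouse table, and all 5 reached a mean of 1 unit over the rats. The rat series holds 1 library labelled 2VO and 1 labelled Sham, both of wild-type genotype and aged 3 to 4 months. The label 2VO commonly stands for tying off the carotid arteries on both sides, a way to lower cerebral blood flow, and Sham for the operation without the ligation. The mouse library is a wild-type of the 3xTg-AD line, aged 6 months. The transgenic animals of that line, a model of Alzheimer's disease, were not analysed here. Each group holds 1 library, so no difference has a replicate check and no test was run. Every comparison describes these libraries and not the conditions. The labels do not say how many animals went into a library.

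Kainate receptors are glutamate-gated cation channels assembled from several subunits. The proteins of Grik1, Grik2 and Grik3 can form working channels alone and bind glutamate with lower affinity. Those of Grik4 and Grik5 bind kainate with high affinity but reach the surface as channels only together with a subunit of the first kind. In the hippocampus the receptors are best known from the mossy fibre synapse between dentate granule cells and CA3 pyramidal cells, and from interneurons, where they also act before the synapse on transmitter release.

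The coding stretch around the Q/R codon is shown because its exon boundary separates the same classes of subunit. This glutamine codon lies in the pore loop. In Grik1 and Grik2 transcripts its middle base can be deaminated by RNA editing, which lowers the calcium permeability of the channel. The stretches below are 39 bases of mouse coding transcripts in GENCODE M21 on GRCm38, read 5′ to 3′, with the Q/R codon in capitals.
Grik1: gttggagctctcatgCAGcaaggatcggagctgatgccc
Grik2: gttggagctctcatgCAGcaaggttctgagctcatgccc
Grik3: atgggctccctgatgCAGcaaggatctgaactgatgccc
Grik4: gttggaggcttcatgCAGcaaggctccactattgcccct
Grik5: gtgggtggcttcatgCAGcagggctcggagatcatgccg
The codon read CAG in all 5 genes. Over the 39 bases Grik1 and Grik2 were identical at 36 positions, and Grik1 and Grik3 at 31. Grik4 and Grik5 matched at 27, while Grik3 and Grik4 matched at 21. The letters did not separate the classes, since Grik1 and Grik5 matched at 29. The exon structure did. In Grik1, Grik2 and Grik3 the codon stood in the last 22 bases shown of 1 exon and the next 17 bases came from the following exon. The exon part with the codon was chr16:87940538-87940559 on the minus strand in Grik1 (exon 12 of 17), chr10:49244325-49244346 on the minus strand in Grik2 (exon 13 of 17) and chr4:125691192-125691213 on the plus strand in Grik3 (exon 12 of 16). In Grik4 and Grik5 the whole stretch lay within 1 exon, at chr9:42547602-42547640 (exon 16 of 21) and chr7:25022476-25022514 (exon 15 of 20), both on the minus strand. The deposited tables hold no reads, so the edited share of these transcripts was not analysed here.

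The values are a normalized expression signal in a unit that no label or file header names, so depth is unknown and no counting error can be given. They summed to 333941 in the 2VO rat, 325636 in the Sham rat and 268889 in the WT mouse. Whether they were divided by transcript length was checked on the values. Across genes of at least 1 unit, the slope of log2 value on log2 length of the longest mouse coding transcript was -0.27 over 11470 genes in the 2VO rat and -0.27 over 11381 genes in the Sham rat. It was -0.17 over 11947 genes in the WT mouse. Over proteasome genes alone the slope was -0.53 in the 2VO rat and -0.55 in the Sham rat, with 37 genes each. In the WT mouse it was -0.43 over 36 genes. Values not divided by length would have a slope nearer 1, and values divided by length a slope near 0. The proteasome slopes lay further from 0 than those of all genes, on the side away from 1. Levels of different genes are therefore set side by side here as if per length. That scaling was read from the data and not stated by the authors.

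In every library the level order was Grik5, Grik4, Grik2, Grik3 and Grik1. Grik5, which encodes the partner subunit GluK5, was 64.0 units in the 2VO rat, 80.3 in the Sham rat and 62.5 in the WT mouse. It stood at rank percentile 96.7 among all genes of the 2VO table, 97.5 in Sham and 97.7 in the mouse. Grik1, the subunit GluK1 typical of hippocampal interneurons, was at the other end with 3.49 units in the 2VO rat, 2.71 in the Sham rat and 3.24 in the WT mouse. Its rank percentiles were 65.6, 63.5 and 71.0 in the same order of libraries. In the rats the smallest gap between neighbours in the order was that of Grik3 and Grik1, whose ratio of levels was 1.30 in 2VO and 1.15 in Sham. In the mouse it was that of Grik2 and Grik3, with a ratio of 1.52. With no replicates it cannot be said which neighbours differ beyond the spread between animals.

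**Figure D1:**
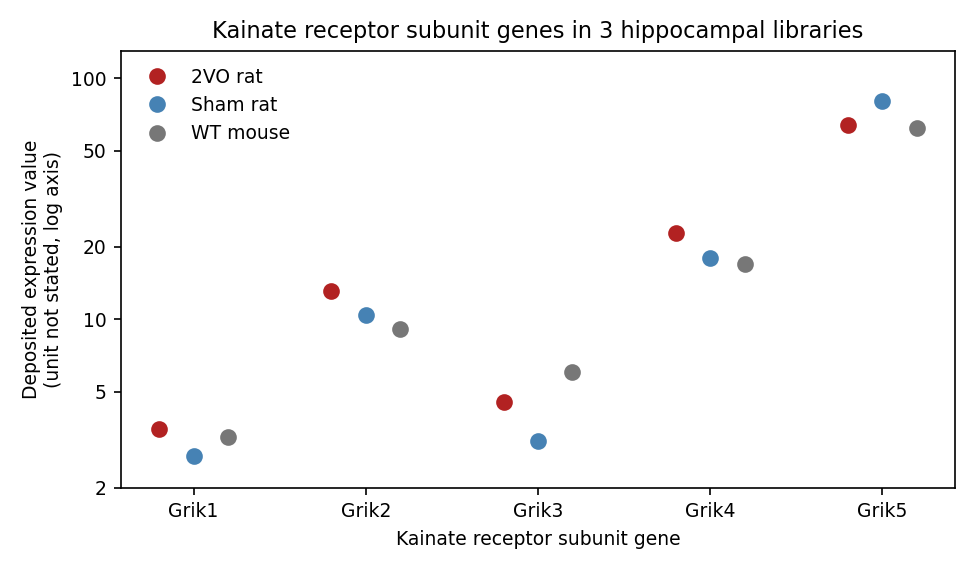
Expression value of each kainate receptor subunit gene in the 2VO rat, the Sham rat and the WT mouse, 1 point per library, on a log axis in the unstated unit of the deposited tables. Grik5 is the highest gene in each library (64.0, 80.3 and 62.5 units), and it is the 1 subunit lower in 2VO than in Sham.

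Set beside the Sham rat, the 2VO rat had more of 4 subunit transcripts and less of the fifth. Grik1, Grik2, Grik3 and Grik4 were 1.26 to 1.45 times the Sham level, and Grik5 was 0.797 times the Sham level. No subunit reached a 1.5-fold difference in either direction, as a plain fold or after adding 1 unit to each value. The background was taken with 1 unit added, which shrinks the folds of low genes. Of all 13550 genes averaging 1 unit or more over the rats, 1.51% were at least 1.5-fold higher in 2VO and 0.967% at least 1.5-fold lower. A value above that of Sham was seen for 58.7% of all measured genes, so 4 of 5 subunits is not far from the background.

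Among the subunits that form channels alone, Grik2, the widely expressed GluK2 subunit of the mossy fibre synapse, was 13.1 units in the 2VO rat and 10.4 in the Sham rat, beside 9.13 in the WT mouse. After adding 1 unit to each value, its log2 ratio between 2VO and Sham was 0.31, at percentile 91.0 of all measured genes. Grik1 had 3.49 units in 2VO and 2.71 in Sham, a log2 ratio of 0.28 at percentile 88.7. Grik3, which encodes GluK3, a subunit of low glutamate sensitivity, was 4.53 units in 2VO and 3.13 in Sham. Its log2 ratio of 0.42 was the highest of the 5 and stood at percentile 96.1. The added unit understates the ratios of Grik1 and Grik3, which are 1.29 and 1.45 as plain folds.

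The partner subunits went opposite ways. Grik4, which encodes GluK4 and is enriched in CA3 pyramidal cells, was 22.8 units in the 2VO rat and 17.9 in the Sham rat, beside 17.0 in the WT mouse. Its log2 ratio of 2VO to Sham was 0.33, at percentile 92.4. Grik5 had a log2 ratio of -0.32 at percentile 4.55. The median log2 ratio of the 5 subunits was 0.31, against 0.04 for all measured genes. All 5 ratios lay inside the central 95% of all measured genes, which ran from -0.41 to 0.50 with an SD of 0.24. In the band of 1 to 5 units that holds Grik1 and Grik3, the central 95% was wider, from -0.50 to 0.58. In the band of 20 to 100 units that holds Grik4 and Grik5 by their mean over the rats, it ran from -0.38 to 0.43. In a bulk sample fewer cells of a type and less RNA per cell cannot be told apart.

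These opposite differences altered the composition of the subunit transcripts while their sum was nearly level. The 5 genes summed to 107.9 units in the 2VO rat, 114.4 in the Sham rat and 97.8 in the WT mouse. Without Grik5 the sum was 43.9 in 2VO, 34.1 in Sham and 35.3 in the mouse. Grik5 made up 59.3% of the summed values in 2VO, 70.2% in Sham and 63.9% in the mouse. Grik4 made up 21.1%, 15.6% and 17.3% in that order, and Grik2 12.2%, 9.10% and 9.34%. Scaling a library cancels in such shares.

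**Figure D2:**
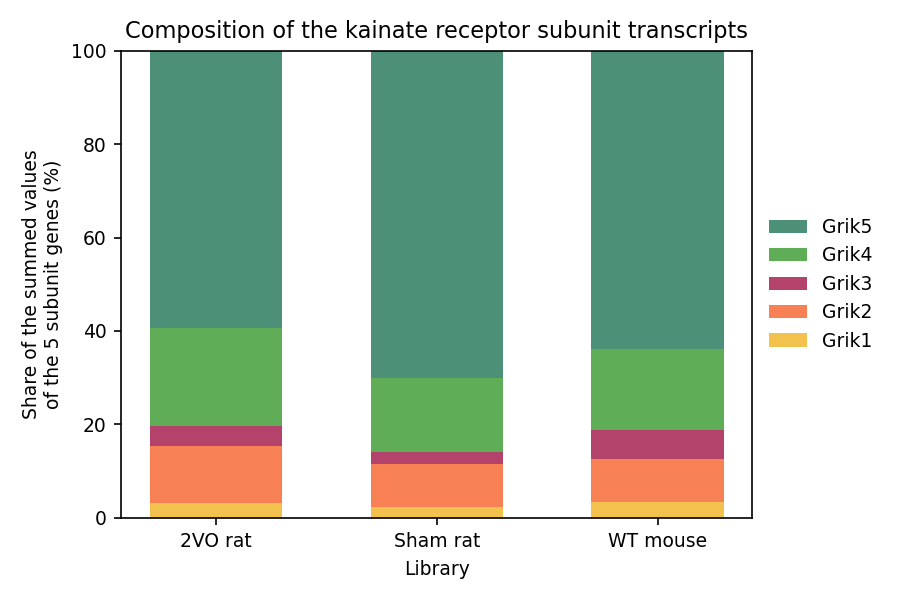
Share of each subunit gene in the summed values of the 5 kainate receptor genes, in percent, 1 bar per library. The Grik5 share is 59.3% in the 2VO rat, 70.2% in the Sham rat and 63.9% in the WT mouse.

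The sum of Grik4 and Grik5 was 4.10 times that of Grik1, Grik2 and Grik3 in the 2VO rat, 6.04 times in the Sham rat and 4.32 times in the WT mouse. Both parts of the ratio differed between the rats, with the Grik4 and Grik5 sum at 86.7 units in 2VO and 98.2 in Sham, and the sum of the other subunits at 21.2 in 2VO and 16.2 in Sham. Grik5 was 4.87 times Grik2 in 2VO, 7.71 times in Sham and 6.84 times in the mouse. Grik4 was 1.73 times Grik2 in 2VO, 1.72 times in Sham and 1.86 times in the mouse, so Grik4 and Grik2 kept almost the same proportion in the 3 libraries. Grik3 was the subunit whose mouse level stood furthest above both rats, at 6.02 units against 4.53 in 2VO and 3.13 in Sham. Levels in the mouse and the rats are given side by side only, since species, age and annotation differ together.

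Auxiliary subunits of kainate receptors are encoded by Neto1 and Neto2, membrane proteins that slow the closing of the channel. Neto1 was 33.3 units in the 2VO rat, 25.01 in the Sham rat and 32.7 in the WT mouse, with a log2 ratio of 2VO to Sham of 0.40. Neto2 was 9.01 units in 2VO, 8.95 in Sham and 8.31 in the mouse, a log2 ratio of 0.01. Neto1 was 1.57 times the summed Grik1, Grik2 and Grik3 in 2VO and 1.54 times in Sham, so it differed between the rats in nearly the proportion of those subunits. Neto2 was 0.426 times that sum in 2VO and 0.551 times in Sham.

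Related genes of kainate receptor handling were described from 6 lists, all 29 members of which were measured. In 2VO 16 were higher and 13 lower, beside 58.7% of all measured genes higher, so the count is near the background. Of the 29, 0 passed 1.5-fold in either direction, beside 1.51% of all measured genes at least 1.5-fold higher and 0.967% lower. Their median log2 ratio was 0.01. The same shares of all measured genes stand beside the counts of the single lists below. Scaffold and trafficking partners had 7 of 9 members higher and a median of 0.16. Dlg1, the SAP97 scaffold, was 15.7 units in 2VO and 11.6 in Sham. Cdh2, the N-cadherin that helps hold GluK2 at contacts, was 27.8 units in 2VO and 22.9 in Sham. On the lower side, Klhl17, the actinfilin adaptor through which the Cul3 ubiquitin ligase degrades GluK2 in rodent neurons, was 15.5 units in 2VO and 18.6 in Sham. Dlg3, the SAP102 scaffold, was 48.0 units in 2VO and 52.0 in Sham.

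Synaptic organizers had 1 member higher and 2 lower. C1ql2, a secreted protein of mossy fibres that gathers kainate receptors in mice, was 95.8 units in 2VO and 96.6 in Sham, and C1ql3, its relative, was 76.9 units in 2VO and 87.3 in Sham. Nrxn3, a presynaptic neurexin that takes part in the same contact, was 28.1 units in 2VO and 24.4 in Sham. RNA editing enzymes were close to equal. Adarb1, which encodes ADAR2, the main enzyme at the Q/R codon shown above, was 29.5 units in 2VO and 30.2 in Sham. Adar was 34.4 units in 2VO and 33.7 in Sham, and Adarb2, a member without known editing activity, was 4.93 and 4.94 in the same order.

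Enzymes that modify GluK2 had 3 of 5 members higher, with a median of 0.00. Prkca, a protein kinase C that phosphorylates GluK2, was 45.5 units in 2VO and 45.2 in Sham. Senp1, a protease, was 2.09 units in 2VO and 1.82 in Sham. For the ligand, 5 of 7 genes of glutamate release and uptake were lower, none by 1.5-fold, with a median of -0.07. Slc17a8, a vesicular glutamate transporter, was 1.25 units in 2VO and 1.47 in Sham, and Slc1a1, the neuronal uptake carrier, was 39.0 and 42.7. Slc1a3, an astrocyte carrier, was 147 units in 2VO and 145 in Sham.

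The AMPA and NMDA receptor families had medians nearer 0 than the kainate subunits. AMPA receptor subunits had 1 of 4 members higher in 2VO and a median log2 ratio of -0.10, and NMDA receptor subunits had 4 of 7 higher and a median of 0.04. Whether the kainate list differs from these was not tested. Against the summed AMPA subunits, the 5 kainate genes came to 34.6% in 2VO, 33.7% in Sham and 27.7% in the WT mouse. Without Grik5 that figure was 14.1% in 2VO, 10.05% in Sham and 10.02% in the mouse. Against the summed NMDA subunits the 5 genes came to 42.0% in 2VO, 44.4% in Sham and 52.0% in the mouse.

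**Figure D3:**
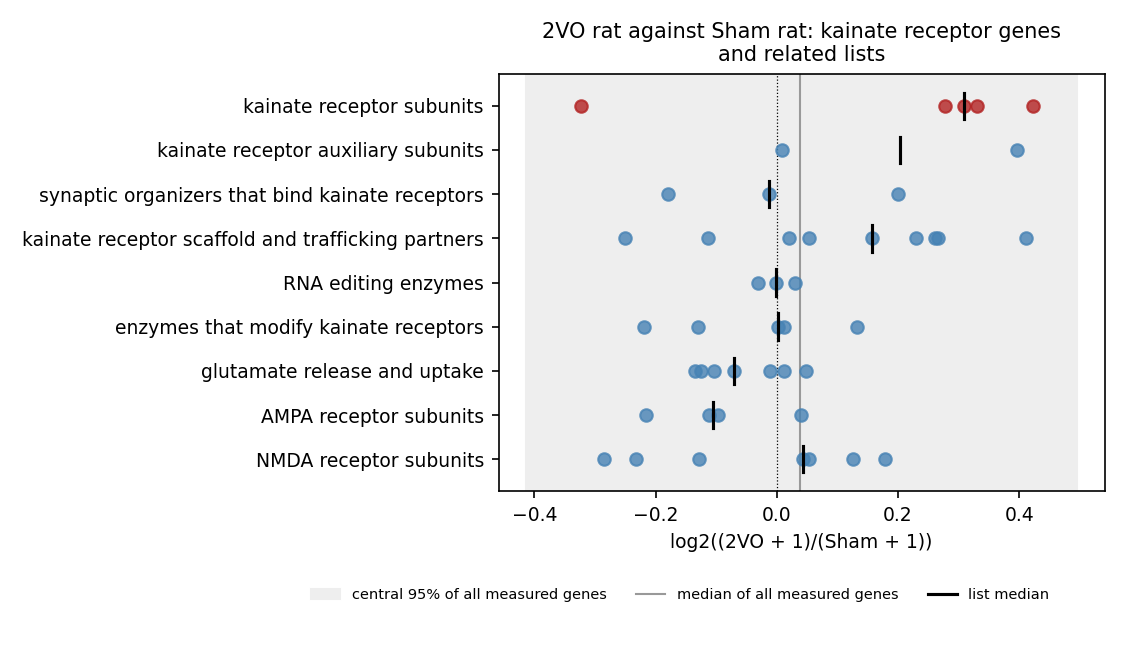
Log2((2VO + 1)/(Sham + 1)) for each gene of the kainate receptor list, the 6 related lists and the AMPA and NMDA receptor families, 1 point per gene with the list median as a black bar. The shaded band is the central 95% of all 13550 measured genes (-0.41 to 0.50), and all points lie within it.

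Markers of cell types differed between the rat libraries beside the subunits. For the counts of neuronal and glial markers, 58.7% of all measured genes were higher in 2VO. GABAergic interneuron genes, whose cells carry Grik1, had 7 of 9 members higher in 2VO, a median log2 ratio of 0.24 and summed values of 392 units in 2VO and 377 in Sham. CA3 pyramidal cell genes, whose cells carry Grik4, had 3 of 4 members higher, a median of 0.27 and sums of 181 and 161 in the same order. The CA3 member that was lower was Bok, at 37.1 units in 2VO and 48.2 in Sham. CA1 genes were divided, 2 higher and 2 lower, with sums of 159 units in 2VO and 225 in Sham. The CA1 sums differed mostly through Wfs1, at 111 units in 2VO and 169 in Sham. Of 5 measured dentate granule cell genes 3 were lower in 2VO, and the 6 listed genes summed to 104 units in 2VO and 121 in Sham. Cortical neuron genes were higher in 4 of 5 members and summed to 60.5 units in 2VO and 38.6 in Sham. These sums differed mostly through Lamp5, at 27.3 units in 2VO and 12.2 in Sham, and Fezf2, at 12.7 and 6.62. Thalamic neuron genes, with 1 of 2 higher, summed to 3.53 units in 2VO and 3.49 in Sham.

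Among glia, oligodendrocyte genes were higher in all 6 members, with sums of 4314 units in 2VO and 3457 in Sham, and oligodendrocyte precursor genes in 2 of 3, with sums of 28.2 and 24.6. Astrocyte genes were lower in 3 of 4 members and microglial genes in 4 of 5, with sums of 538 and 82.4 units in 2VO and 959 and 111 in Sham. The microglial member that was higher was P2ry12, at 8.83 units in 2VO and 5.49 in Sham. The astrocyte sums differed through Gfap, the intermediate filament gene, at 360.0 units in 2VO and 778 in Sham; the other 3 genes summed to 178 in 2VO and 181 in Sham. The 3 choroid plexus genes, 2 of which were measured, summed to 6.33 units in 2VO and 1.28 in Sham. Ttr was 4.75 units in 2VO and 0.434 in Sham, and Folr1 was 1.54 and 0.798 in the same order. With Sham under 1 unit, they reached the minimum mean only through 2VO, so their higher direction follows from that filter. Kl, which was not measured, went the other way, at 0.037 units in 2VO and 0.050 in Sham. No marker gene was listed at 0 in any library. That held for CA1, CA3 and dentate granule cell markers and equally for cortical, thalamic and choroid plexus markers, so it does not bear on the tissue label. The part of these marker differences in the subunit values was not tested.

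**Figure D4:**
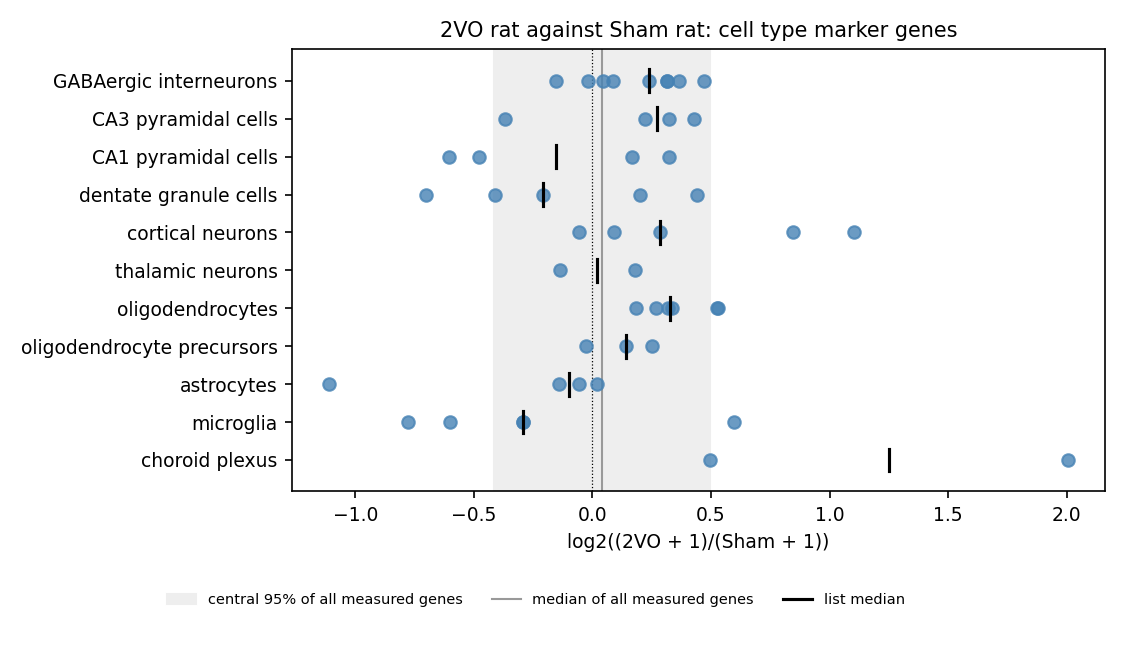
Log2((2VO + 1)/(Sham + 1)) for the measured marker genes of 11 cell types, 1 point per gene with the list median as a black bar and the central 95% of all measured genes shaded. List medians above 0 are those of choroid plexus (1.25), oligodendrocytes (0.33), cortical neurons (0.29), CA3 pyramidal cells (0.27), interneurons (0.24), oligodendrocyte precursors (0.14) and thalamic neurons (0.02). Those below 0 are microglia (-0.29), dentate granule cells (-0.21), CA1 pyramidal cells (-0.16) and astrocytes (-0.10). The measured choroid plexus genes passed the minimum mean only through 2VO, so the sign of their median follows from that filter.

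For each subunit the most similar genes were sought among the 42 genes of the related lists and the other ionotropic families. The measure was the Euclidean distance of log2(value + 1) over the 3 libraries after centring each gene on its mean, which rests on few points. Grik3 was closest to Dlg1, at a distance of 0.016, with Dlg1 at 15.7 units in 2VO, 11.6 in Sham and 20.1 in the WT mouse. Grik1 was closest to Cdh2 at 0.071 and Neto1 at 0.13. Grik2 was closest to Grip1 and Nrxn3, at 0.14 each, and Grik4 to Nrxn3 at 0.10 and Grin2b at 0.14. Grik5 was closest to Klhl17 at 0.064. A shared direction between the rats largely follows from choosing genes by this distance and is not a separate likeness. The distance also takes in the mouse, so differences between the species weigh in it.

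The promoters of the rat genes at the ends of the 2VO to Sham ratio, Grik3 and Grik5, are shown for comparison, as RefSeq gives them on GRCr8 from 250 bases before to 50 after an annotated start. Capitals mark the GC box GGGCGG on either strand. The Grik3 window is chr5:143052192-143052491 on the plus strand and the Grik5 window chr1:89794860-89795159 on the minus strand.
Grik3: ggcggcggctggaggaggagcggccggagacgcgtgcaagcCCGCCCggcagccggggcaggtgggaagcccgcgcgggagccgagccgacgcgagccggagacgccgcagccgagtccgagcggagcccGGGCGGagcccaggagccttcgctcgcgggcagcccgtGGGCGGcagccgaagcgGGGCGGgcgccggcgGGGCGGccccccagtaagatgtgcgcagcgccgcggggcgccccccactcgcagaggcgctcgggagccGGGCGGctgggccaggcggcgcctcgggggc
Grik5: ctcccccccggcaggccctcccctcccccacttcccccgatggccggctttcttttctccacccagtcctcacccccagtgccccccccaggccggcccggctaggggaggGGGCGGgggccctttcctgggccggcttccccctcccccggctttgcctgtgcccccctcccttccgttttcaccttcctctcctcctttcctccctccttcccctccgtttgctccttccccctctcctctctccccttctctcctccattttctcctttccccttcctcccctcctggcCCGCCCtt
Grik3 had 6 GC boxes and a GC content of 82.3%, above 99.6% of 33365 rat promoter windows. Grik5 had 2 GC boxes and a GC content of 69.0%, above 90.3% of the windows. A GC box was present in 33.1% of all windows. The GC box was not found in the windows of Grik1, Grik2 and Grik4. The Grik4 window belongs to a start site 126688 bases inside the outer end of the gene, against 0 to 860 bases for the other subunits, so it is not the same kind of window. The CRE half-site TGACG, the TATA box TATAAA and the CCAAT box CCAAT were searched on both strands too, and no match overlapped another in the 5 windows. They were present in 21.2%, 14.2% and 37.5% of all windows. In the 5 genes they were found only in Grik2, with 1 CRE half-site and 1 CCAAT box. These matches describe the letters of the windows, and none was tied to a difference between the libraries.

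Genes that overlap the subunits are listed with their own values where the tables hold them. Such values do not show how shared reads were assigned, so an effect of overlap on the subunit values could not be checked. In RefSeq on GRCr8 no other gene overlapped Grik5. The long non-coding gene LOC108352301, which overlaps Grik1, was listed at 0.011 units in 2VO and at 0 in Sham. LOC108351031, which overlaps Grik3, was 0.107 units in 2VO and 0.064 in Sham. The remaining overlapping entries of Grik1, Grik2, Grik3 and Grik4 had no values under those names.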

How the data were processed

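Hippocampal RNA was extracted with TRIzol and 1 µg went into each TruSeq RNA Library Prep Kit v2 library, per the labels' protocols. The submitters' processing notes name the builds mRatBN7.2 and GRCm39 and the tools fastp 0.21.0, HISAT2 2.1.0 and DESeq2, without roles; quantifier, annotation and filters are not stated there. Per the file headers, every deposited table pairs gene symbols with 1 normalized signal of unnamed unit. How reads shared between similar subunit genes were assigned is not known, so depth, counting error and that sharing are open limits.

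Values were used as deposited. The log2 ratio of 2VO to Sham had 1 unit added to both values and covered genes averaging 1 unit or more. Groups came from the titles. With 1 library per group no test was run. The members, lists, thresholds and alternatives were chosen with earlier results of these data known. All members were named. Of other lists all measured genes were named where at most 4 were measured, otherwise the 2 highest and 2 lowest ratios, while most comparator and marker lists are given as counts and sums. Lists were read as counts, medians and sums. A few of the genes so chosen are not reported here.

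Alternatives were upper-quartile, median-of-ratios and trimmed-sum scaling (without the 50 most abundant genes), 0.25 or 4 units added, no minimum or a minimum mean of 5 units, and a lowess trend (span 0.3) subtracted. The calculation was tested on simulated data. GENCODE M21 (GRCm38) and RefSeq (GRCr8) gave sequences only; these builds differ from those in the notes, and all 5 symbols matched in each. The software was numpy 2.4.6, pandas 2.3.3, statsmodels 0.14.6 and matplotlib 3.10.9 under Python 3.11.15.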

Additional observations from a re-analysis of the deposited data

How the results depend on the processing

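The 5 subunits kept their direction under every alternative in which they were measured, but these alternatives could hardly reverse it. A changed added constant or minimum cannot alter which rat has the higher value. The scalings and the lowess trend shifted the median of all genes by -0.03 to -0.04, which is small beside every subunit ratio. The kept direction therefore says nothing of the spread between animals. The log2 ratio of 2VO to Sham ran from 0.16 to 0.34 for Grik1, from 0.25 to 0.33 for Grik2, from 0.26 to 0.50 for Grik3, from 0.29 to 0.34 for Grik4 and from -0.37 to -0.31 for Grik5. With a mean of at least 5 units Grik1 and Grik3 were no longer measured, which leaves 2 of 3 subunits higher in 2VO. The count of all genes at least 1.5-fold apart depended on the added constant: 342 higher and 215 lower with 0.25 units, and 70 higher and 50 lower with 4 units, against 205 and 131. With a mean of at least 5 units it was 97 higher and 59 lower. With the lowess trend subtracted it was 164 higher and 160 lower, a nearly even split. On log2(value + 1) the share of Grik5 was 31.6% in 2VO, 35.2% in Sham and 32.6% in the WT mouse. Rank percentiles over genes above 0 only were lower for every subunit. That had to follow, since leaving out genes at 0 removes only genes below the subunits. No paired analysis was possible because each group holds 1 library. The unknown depth and the lack of replicates limit every value.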
